A study of Homo sapiens with 6 samples.

Results

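The genes of mitochondrial protein import were examined in 22Rv1 cells treated with Drug_0120, Drug_CN27 or vehicle. They were chosen by symbol, as all TIMM and TOMM genes with a numbered name plus DNAJC15, DNAJC19, PAM16, GRPEL1, SAMM50 and PMPCB, which gave 31 of the 20297 genes in the table. 22Rv1 is a human prostate cancer line in long use, and polyadenylated RNA was sequenced in 2 libraries for each of the 3 groups. Drug_0120 and Drug_CN27 are small molecules that the study describes as inhibitors of the linker histone variant H1-10. Each was given at its IC50. Concentrations and durations were not stated in the labels, so it is not known whether the doses match. Levels are in TPM, the share of all transcripts after scaling for transcript length. All means are given with their SD over n = 2 libraries.

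Most mitochondrial proteins are made in the cytosol and must be carried across the mitochondrial membranes. The TOM complex of the outer membrane is the common entry gate: TOMM20, TOMM22 and TOMM70 act as receptors, TOMM40 forms the pore, and TOMM5, TOMM6 and TOMM7 are small subunits. From there, small TIM chaperones escort hydrophobic proteins to the TIM22 complex of the inner membrane, while proteins with a presequence pass through the TIM23 channel, are pulled in by a motor built around mitochondrial HSP70, and lose the presequence to a processing peptidase.

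In vehicle, 29 of the 31 genes had at least 1 TPM in at least 2 libraries, the minimum for testing, and so did they with both compounds. TOMM40, at 289 ± 3.74 TPM, TOMM20 and TOMM7 had the highest levels in vehicle, and TIMM22, at 23.5 ± 0.572 TPM, the lowest level of the 29. The other 2 genes were not tested, and each is a paralog of a tested one. TOMM20L, a paralog of TOMM20, had 0.399 and 0.555 TPM in Drug_0120, 0.215 and 0.429 TPM in Drug_CN27, and 0.721 and 0.680 TPM in vehicle. DNAJC15, a paralog of the motor subunit DNAJC19, was listed at 0 TPM in all 6 libraries. TOMM20 and DNAJC19 were thus far above these paralogs in every library.

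Across the tested genes, replicate libraries had r = 0.996 in Drug_0120, 0.994 in Drug_CN27 and 0.996 in vehicle. All 8 prostate epithelial markers examined were found, with summed levels of 1475 to 1477 TPM in Drug_0120, 2699 TPM in Drug_CN27 and 2390 to 2412 TPM in vehicle. Of the leukocyte and endothelial markers listed none exceeded 1.11 TPM, and the endothelial marker PECAM1 was not listed. The 4 fibroblast markers summed to 28.1 to 29.4, 25.1 to 27.2 and 29.9 to 31.3 TPM in the same order of groups. Their part in the results was not tested. Genes outside the table took 28.4 ± 0.604% of all TPM in Drug_0120, 18.95 ± 0.857% in Drug_CN27 and 18.7 ± 0.829% in vehicle. A TPM value is relative to the total, so fewer transcripts of a gene and more of other RNA cannot be told apart. The results of the import genes, and the counts over all tested genes, were therefore also computed under 3 other scalings: median-of-ratios factors, quantile normalization and equal table totals.

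**Figure D1:**
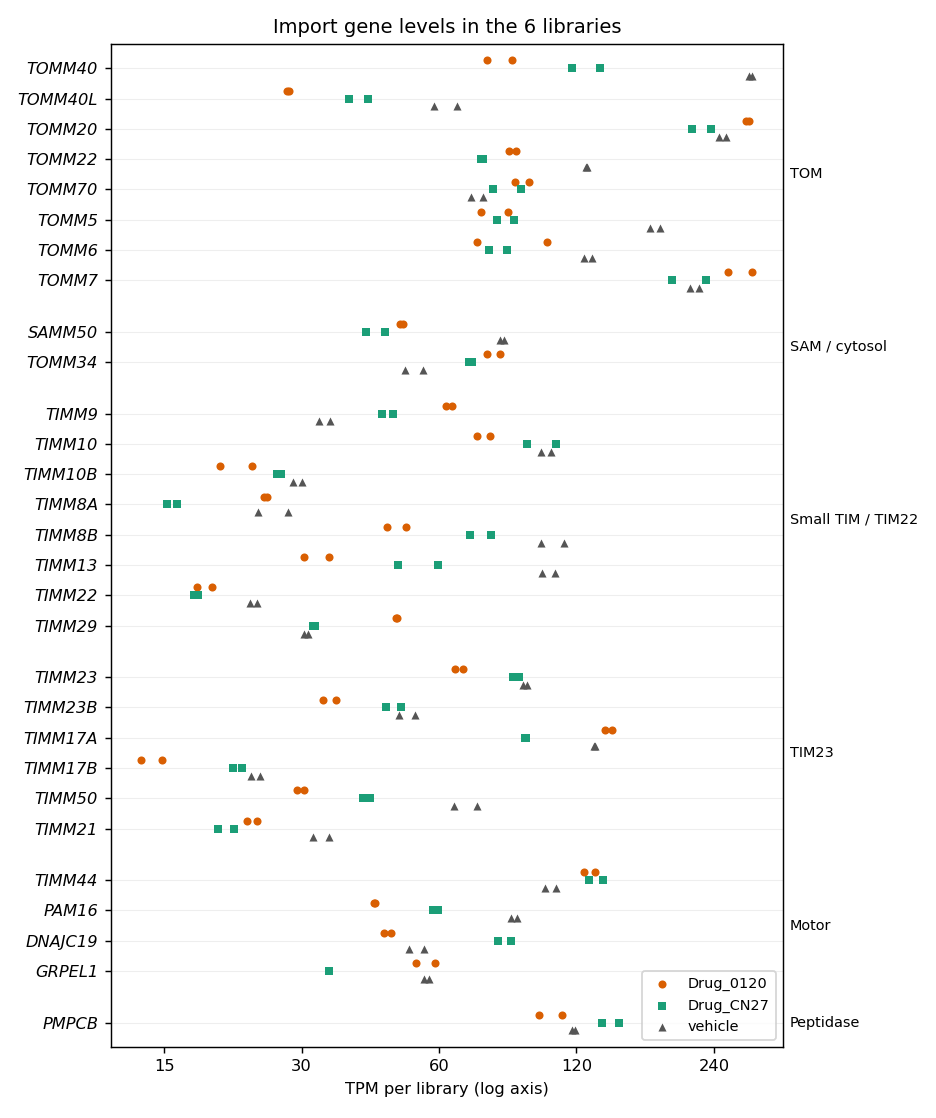
TPM of the 29 tested import genes in every library (log axis), grouped by role, with Drug_0120 as circles, Drug_CN27 as squares and vehicle as triangles. TOMM40 lies at 76.3 and 86.8 TPM in Drug_0120 and at 286 and 292 TPM in vehicle, while TIMM9 lies at 64.0 and 62.2 TPM in Drug_0120 and at 32.8 and 34.7 TPM in vehicle.

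The first 2 comparisons ask how each compound changed the import genes. With Drug_0120, 18 of the 29 genes were lower than in vehicle, 7 were higher and 4 did not pass (limma, adjusted p under 0.05). Many other genes passed too, 81.5% of the 13606 tested genes in either direction, against 86.2% of the import genes: 45.5% of all tested genes were called lower and 36.0% higher, against 62.1% and 24.1% of the import genes. At least 2-fold falls were seen for 6 import genes, or 20.7%, close to the 20.2% of all tested genes. Several of them lay near the 2-fold line, so that the other scalings gave 5, 4 and 2 such genes (median-of-ratios, quantile and equal totals), beside 18.1%, 16.0% and 16.9% of all tested genes; TOMM40 and TIMM13 were among them each time. None of the import genes was at least 2-fold higher in the deposited TPM, against 11.5% of all tested genes, but TIMM9 was under median-of-ratios and equal totals scaling and TIMM29 after a correction for GC content. The median log2 change was -0.45 for the import genes and -0.10 for all tested genes.

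With Drug_CN27, 16 import genes were lower than in vehicle, 6 were higher and 7 did not pass. Among all tested genes 70.4% passed in either direction, beside 75.9% of the import genes; 26.6% were called lower and 43.7% higher, against 55.2% and 20.7% of the import genes. TOMM40 and TOMM5 were the 2 import genes with falls of at least 2-fold, or 6.90%, beside 4.82% of all tested genes, and none was at least 2-fold higher, beside 7.33% of all tested genes. Under median-of-ratios scaling the falls of at least 2-fold were 4, with TIMM13 and SAMM50 added, beside 6.93% of all tested genes. The median log2 change was -0.40 for the import genes and 0.15 for all tested genes. Under median-of-ratios scaling the split for Drug_CN27 was 20 lower and 3 higher, or 69.0% and 10.3%, beside 34.8% and 33.7% of all tested genes.

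Both compounds were set against the same vehicle libraries, so their results are given side by side and are not independent. The difference between the median of the import genes and that of all genes was -0.35 with Drug_0120 and ran from -0.32 to -0.35 over the 4 scalings. With Drug_CN27 it was -0.55 and ran from -0.52 to -0.56. With 1 library left out it ran from -0.28 to -0.37 with Drug_0120 and from -0.52 to -0.565 with Drug_CN27. With no filter on low values it was -0.43 with Drug_0120 and -0.45 with Drug_CN27. Summed over the 31 genes, the level in the deposited TPM was 2165 ± 69.8 in Drug_0120, 2176 ± 30.6 in Drug_CN27 and 2739 ± 16.2 in vehicle. This sum was not computed under the other scalings. The total over all listed genes was 711705 and 720252 TPM in Drug_0120, 804410 and 816528 TPM in Drug_CN27, and 806820 and 818548 TPM in vehicle. The similar sums with the 2 compounds therefore hold for the deposited TPM alone.

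**Figure D2:**
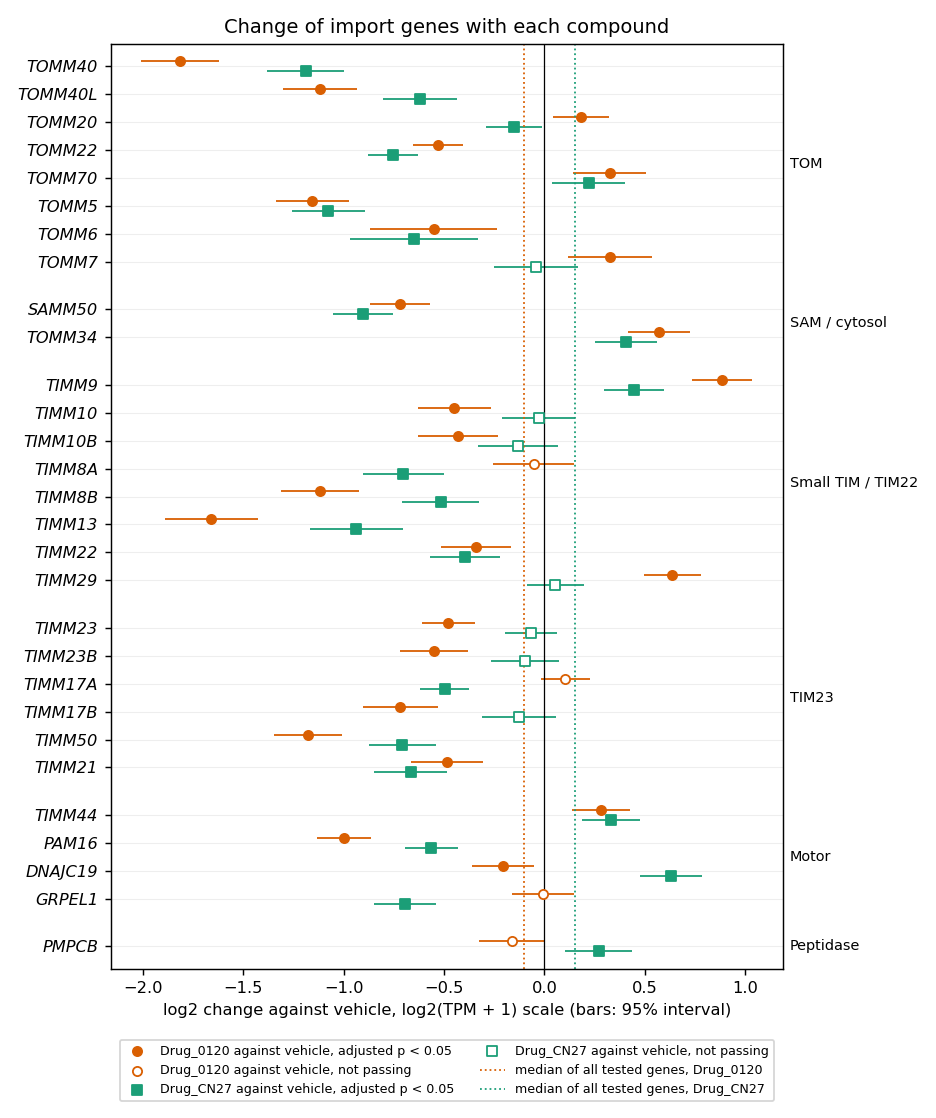
Log2 change against vehicle for each tested import gene, with 95% intervals, for Drug_0120 (circles) and Drug_CN27 (squares). Filled points passed at adjusted p under 0.05, and dotted lines mark the median of all tested genes, at -0.10 for Drug_0120 and 0.15 for Drug_CN27; most import genes lie left of both lines.

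The TOM complex held the largest change, that of its pore. TOMM40 (ENSG00000130204.12_5) had 76.3 and 86.8 TPM in Drug_0120, 118 and 135 TPM in Drug_CN27, and 286 and 292 TPM in vehicle. The 3 groups did not overlap, with Drug_0120 lowest and vehicle highest. The log2 change was -1.82 ± 0.08 (SE) with Drug_0120 (limma adjusted p = 1.6e-07) and -1.19 ± 0.08 with Drug_CN27 (adjusted p = 6.31e-06). In the deposited TPM this was the largest change of any import gene with either compound. After the correction for GC content, TOMM5 fell more than TOMM40 with Drug_CN27 (-1.28 against -1.12). TOMM40L, a second copy of the pore gene, had 27.8 and 28.2 TPM in Drug_0120, 38.1 and 42.0 TPM in Drug_CN27, and 58.4 and 65.8 TPM in vehicle. It was ordered as TOMM40 was, with log2 changes of -1.12 ± 0.08 and -0.62 ± 0.08 for Drug_0120 and Drug_CN27 (limma adjusted p = 2.17e-06 and 0.000171).

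Among the small TOM subunits, TOMM5 had 74.1 and 85.2 TPM in Drug_0120, 87.8 and 80.4 TPM in Drug_CN27, and 174 and 182.5 TPM in vehicle. All 4 treated libraries lay at or below 87.8 TPM, far under vehicle, and the treated groups overlapped each other. TOMM5 fell by 1.16 ± 0.08 on the log2 scale with Drug_0120 and by 1.08 ± 0.08 with Drug_CN27 (limma adjusted p = 1.69e-06 and 7.94e-06). TOMM6 averaged 88.0 ± 21.6 TPM in Drug_0120, 80.9 ± 5.39 TPM in Drug_CN27 and 127 ± 3.40 TPM in vehicle, with the Drug_0120 libraries far apart at 72.7 and 103 TPM. It fell with both compounds (log2 changes -0.55 and -0.65), and its call with Drug_0120 was lost under quantile normalization (log2 change -0.33, limma adjusted p = 0.0576). TOMM7, the third small subunit, behaved differently: it averaged 274 ± 24.3 TPM in Drug_0120, 212 ± 25.6 TPM in Drug_CN27 and 218 ± 7.11 TPM in vehicle. It was higher with Drug_0120 (log2 change 0.33 ± 0.09, limma adjusted p = 0.00889) and did not pass with Drug_CN27 (-0.04, 95% interval -0.25 to 0.17). Without replicate 2 of Drug_0120 the rise of TOMM7 lost its call (0.24, limma adjusted p = 0.0639).

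The 3 receptors moved in different directions. TOMM22, the central receptor that also organizes the complex, had 85.6 and 88.5 TPM in Drug_0120, 74.0 and 74.9 TPM in Drug_CN27, and 126 and 126 TPM in vehicle. It fell with both compounds, by 0.53 ± 0.05 with Drug_0120 and 0.75 ± 0.05 with Drug_CN27 on the log2 scale (limma adjusted p = 2.1e-05 and 7.15e-06). TOMM20, the receptor for presequences, had 287 and 282 TPM in Drug_0120, 236 and 215 TPM in Drug_CN27, and 255 and 246.5 TPM in vehicle. The groups did not overlap, and the differences from vehicle had opposite signs, 0.18 ± 0.06 with Drug_0120 and -0.15 ± 0.06 with Drug_CN27 (limma adjusted p = 0.0221 and 0.0497). Its rise with Drug_0120 was also called under the 3 other scalings (0.30 to 0.53), and its fall with Drug_CN27 under median-of-ratios scaling (-0.32) and after GC correction (-0.43). But the call with Drug_0120 was lost without any 1 of the 4 libraries compared (limma adjusted p 0.0528 to 0.131) and after GC correction (0.09), and that with Drug_CN27 was lost, among others, under quantile normalization and equal table totals (adjusted p = 0.0653 and 0.0651). TOMM70, the receptor for carrier proteins, averaged 91.2 ± 4.55 TPM in Drug_0120, 84.9 ± 8.41 TPM in Drug_CN27 and 72.6 ± 3.11 TPM in vehicle. It was higher with both compounds (0.32 and 0.22 on the log2 scale, limma adjusted p = 0.00476 and 0.0352). But with Drug_CN27 the call was lost under median-of-ratios scaling (0.05) and quantile normalization (0.20, limma adjusted p = 0.0572). The call was also lost with no filter on low values and without a mean-variance trend. It was lost as well without replicate 2 of vehicle (0.18) or replicate 1 of Drug_CN27 (0.12).

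Beside the TOM complex, SAMM50, the core of the machine that inserts barrel proteins such as TOMM40 into the outer membrane, had 49.2 and 50.2 TPM in Drug_0120, 45.7 and 41.6 TPM in Drug_CN27, and 83.1 and 81.8 TPM in vehicle. Both treated groups lay well below vehicle, and SAMM50 fell by 0.72 ± 0.07 and 0.90 ± 0.07 on the log2 scale with Drug_0120 and Drug_CN27 (limma adjusted p = 1.03e-05 and 7.43e-06). TOMM34, a cytosolic co-chaperone of import precursors and no part of the membrane complex, went the other way. Its level averaged 79.1 ± 3.54 TPM in Drug_0120, 70.4 ± 0.810 TPM in Drug_CN27 and 52.9 ± 3.36 TPM in vehicle, a rise of 0.57 and 0.41 on the log2 scale that passed under all 4 scalings.

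The small TIM chaperones work as pairs, TIMM9 with TIMM10 and TIMM8A with TIMM13, and with Drug_0120 the partners moved unequally in both pairs. TIMM9 (ENSG00000100575.13_2) had 64.0 and 62.2 TPM in Drug_0120, 45.0 and 47.6 TPM in Drug_CN27, and 32.8 and 34.7 TPM in vehicle. In the deposited TPM it was the import gene that rose most with Drug_0120 (log2 change 0.89 ± 0.07, limma adjusted p = 2.67e-06). It rose by 0.45 ± 0.07 with Drug_CN27 (limma adjusted p = 0.000359). After GC correction TIMM29 rose more with Drug_0120 (1.16 against 0.81 for TIMM9). TIMM10 had 72.5 and 77.7 TPM in Drug_0120, 93.6 and 108.5 TPM in Drug_CN27, and 100.4 and 105 TPM in vehicle. TIMM10 was thus low in Drug_0120 (log2 change -0.45 ± 0.08, limma adjusted p = 0.000717), and its Drug_CN27 libraries overlapped vehicle (-0.03, 95% interval -0.21 to 0.15). TIMM10B, a further chaperone bound to the TIM22 complex, had 23.4 and 19.9 TPM in Drug_0120, 27.1 and 26.5 TPM in Drug_CN27, and 30.1 and 28.8 TPM in vehicle, and passed with Drug_0120 (log2 change -0.43 ± 0.09, adjusted p = 0.00157) but not with Drug_CN27 (-0.13, adjusted p = 0.206; lower with a call under median-of-ratios and quantile scaling).

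TIMM13 (ENSG00000099800.7_3) had 30.4 and 34.4 TPM in Drug_0120, 48.9 and 59.6 TPM in Drug_CN27, and 101 and 108 TPM in vehicle. In the deposited TPM it fell most with Drug_0120 after TOMM40 (log2 change -1.66 ± 0.10, limma adjusted p = 8.23e-07). It fell by 0.94 ± 0.10 with Drug_CN27 (limma adjusted p = 6.19e-05). After GC correction TIMM8B and TOMM5 (-1.18 each) fell more with Drug_0120 than TIMM13 (-1.08). Its partner TIMM8A had 24.8 and 25.2 TPM in Drug_0120, 16.0 and 15.2 TPM in Drug_CN27, and 27.99 and 24.08 TPM in vehicle. TIMM8A overlapped vehicle with Drug_0120 (log2 change -0.05, 95% interval -0.25 to 0.15) and lay below it with Drug_CN27 (-0.70 ± 0.09, limma adjusted p = 0.000139). TIMM8B, a paralog of TIMM8A, had 46.2 and 50.9 TPM in Drug_0120, 70.2 and 78.0 TPM in Drug_CN27, and 100.4 and 113 TPM in vehicle. It had the opposite order of the compounds, falling by 1.12 ± 0.08 with Drug_0120 and by 0.52 ± 0.08 with Drug_CN27 on the log2 scale (limma adjusted p = 2.96e-06 and 0.000648).

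The TIM22 complex itself is represented by its channel TIMM22 and by TIMM29, a subunit that links it to the outer membrane. TIMM22 averaged 18.4 ± 0.983 TPM in Drug_0120, 17.6 ± 0.230 TPM in Drug_CN27 and 23.5 ± 0.572 TPM in vehicle, and fell with both compounds (log2 changes -0.34 and -0.40), with the call for Drug_0120 lost under equal table totals (-0.16, limma adjusted p = 0.0796). TIMM29 averaged 48.4 ± 0.0696 TPM in Drug_0120, 32.0 ± 0.281 TPM in Drug_CN27 and 30.7 ± 0.436 TPM in vehicle. Its rise with Drug_0120 was 0.64 ± 0.06 on the log2 scale (limma adjusted p = 1.5e-05), while Drug_CN27 gave 0.05 (95% interval -0.09 to 0.20).

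Of the 6 genes of the TIM23 channel, 5 were lower with Drug_0120 and 3 with Drug_CN27, where 45.5% and 26.6% of all tested genes were lower. TIMM50, the receptor that hands precursors to the channel, had 29.4 and 30.3 TPM in Drug_0120, 42.4 and 40.9 TPM in Drug_CN27, and 64.8 and 72.8 TPM in vehicle. In the deposited TPM it had the largest fall of the group with both compounds, with log2 changes of -1.18 ± 0.07 and -0.71 ± 0.07 for Drug_0120 and Drug_CN27 (limma adjusted p = 9.32e-07 and 4.9e-05). TIMM21, which in yeast couples the channel to the TOM complex, averaged 23.4 ± 0.893 TPM in Drug_0120, 20.5 ± 1.17 TPM in Drug_CN27 and 33.1 ± 1.83 TPM in vehicle, and fell by 0.48 and 0.67 on the log2 scale. With Drug_CN27 it fell more than TIMM50 under quantile normalization (-0.82 against -0.76) and after GC correction (-0.97 against -0.70). The channel gene TIMM23 had 67.7 and 64.9 TPM in Drug_0120, 89.7 and 87.4 TPM in Drug_CN27, and 93.7 and 91.9 TPM in vehicle. Its near-identical copy TIMM23B had 35.7 and 33.5 TPM in Drug_0120, 45.9 and 49.5 TPM in Drug_CN27, and 53.1 and 49.1 TPM in vehicle. Reads of TIMM23 and TIMM23B may be shared out between them, so the split is uncertain; both fell with Drug_0120 (log2 changes -0.48 and -0.55) and neither passed with Drug_CN27 (-0.07 and -0.10), though both were called lower under median-of-ratios scaling (-0.24 and -0.26).

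TIMM17A and TIMM17B are alternative partners of TIMM23 in the channel, and TIMM17A was lower with Drug_CN27 and TIMM17B with Drug_0120. TIMM17A had 139 and 144 TPM in Drug_0120, 93.2 and 92.4 TPM in Drug_CN27, and 131 and 131.5 TPM in vehicle. It fell with Drug_CN27 (log2 change -0.50 ± 0.05, limma adjusted p = 5.84e-05); with Drug_0120 its difference was 0.105 (95% interval -0.02 to 0.23; adjusted p = 0.0979) and was called higher under the 3 other scalings (0.23 to 0.37). TIMM17B had 14.8 and 13.4 TPM in Drug_0120, 21.2 and 22.2 TPM in Drug_CN27, and 23.3 and 24.3 TPM in vehicle. It fell by 0.72 ± 0.08 on the log2 scale with Drug_0120 (limma adjusted p = 3.95e-05) and did not pass with Drug_CN27 (-0.13, 95% interval -0.31 to 0.06), although median-of-ratios and quantile scaling called it lower (-0.29 and -0.30).

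The motor subunits did not move together. PAM16, which in yeast holds the J-protein of the motor in check, had 43.3 and 43.4 TPM in Drug_0120, 59.9 and 58.1 TPM in Drug_CN27, and 88.9 and 86.3 TPM in vehicle. It fell by 0.997 ± 0.058 on the log2 scale with Drug_0120 and by 0.56 ± 0.06 with Drug_CN27 (limma adjusted p = 6.09e-07 and 4.7e-05). TIMM44, the anchor of HSP70 at the channel, averaged 128 ± 5.16 TPM in Drug_0120, 132.5 ± 6.30 TPM in Drug_CN27 and 105 ± 4 TPM in vehicle, and was higher with both (0.28 and 0.33 on the log2 scale, limma adjusted p = 0.00274 and 0.00159), although the call with Drug_CN27 was lost under median-of-ratios scaling (0.16, adjusted p = 0.0775). DNAJC19 (ENSG00000205981.7_3), the J-protein that stimulates HSP70, had 45.5 and 47.2 TPM in Drug_0120, 86.2 and 80.9 TPM in Drug_CN27, and 55.6 and 51.6 TPM in vehicle. In the deposited TPM it was the import gene that rose most with Drug_CN27 (log2 change 0.63 ± 0.07, limma adjusted p = 5.62e-05). Beside TIMM44 at 0.36, its rise with Drug_CN27 was 0.34 after GC correction. Its lower level with Drug_0120 (-0.20 ± 0.07, limma adjusted p = 0.0198) lost the call under each of the 3 other scalings (-0.03 to -0.10), and without replicate 1 of vehicle (-0.15, adjusted p = 0.16) or of Drug_0120 (-0.18, adjusted p = 0.107). After GC correction it was called lower at -0.31 (limma adjusted p = 0.00099). GRPEL1, the nucleotide exchange factor that resets HSP70, had 53.4 and 58.8 TPM in Drug_0120, 34.4 and 34.4 TPM in Drug_CN27, and 57.0 and 55.7 TPM in vehicle. Both Drug_CN27 libraries lay far below the other 4 (log2 change -0.69 ± 0.07, limma adjusted p = 3.46e-05), while Drug_0120 overlapped vehicle (-0.01, 95% interval -0.16 to 0.15).

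PMPCB, the catalytic subunit of the processing peptidase, averaged 106 ± 8.64 TPM in Drug_0120, 143 ± 8.49 TPM in Drug_CN27 and 118 ± 1.25 TPM in vehicle. It was higher with Drug_CN27 (log2 change 0.27 ± 0.07, limma adjusted p = 0.00928), but not after median-of-ratios scaling (0.10, adjusted p = 0.229) or without replicate 1 of Drug_CN27 (0.21, adjusted p = 0.0527). With Drug_0120 the difference was -0.16 (limma adjusted p = 0.0674).

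Promoters of the import genes were read from RefSeq (GRCh38.p14, 250 bases before to 50 after the start), which held 28 of the 31 genes in 30 windows. The nuclear respiratory factor NRF1 is known to drive many nuclear genes of mitochondria, so its core GCATGCGC was searched on both strands. It was found in the windows of 4 genes, 13.3% of the 30 windows and 3.05% of 35116 windows of all genes. The stretches around it are shown 5′ to 3′ on the gene's strand, because the 4 genes include TIMM9, which rose with both compounds, and PAM16, which fell with both; capitals mark the core, which in PAM16 lies on the opposite strand.
TOMM7, chr7:22822953-22823012, minus strand: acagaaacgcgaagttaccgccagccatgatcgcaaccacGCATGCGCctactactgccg
TIMM10B, chr11:6481459-6481506, plus strand: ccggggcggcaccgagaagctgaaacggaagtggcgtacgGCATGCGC
TIMM9, chr14:58427640-58427699, minus strand: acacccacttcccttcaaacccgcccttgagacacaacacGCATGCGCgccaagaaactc
PAM16, chr16:4351347-4351406, minus strand: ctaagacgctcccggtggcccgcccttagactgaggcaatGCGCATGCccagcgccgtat
The 4 genes did not move together: with Drug_0120, TOMM7 and TIMM9 were higher and TIMM10B and PAM16 lower. The E-box CACGTG was in the windows of TIMM10, TIMM8A and TOMM20 (10% of the 30 windows and 7.26% of all windows) and the ATF4-type composite TGATGNAA in those of PMPCB and TIMM22 (6.67% and 3.62%). A match is a run of letters in a window and was not tested as a binding site.

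Ratios of import genes within a library are not changed by a constant scaling factor of that library; quantile normalization and GC correction can change them. TOMM40 over TOMM20 was 0.266 and 0.308 in Drug_0120, 0.498 and 0.628 in Drug_CN27, and 1.12 and 1.18 in vehicle, so the pore transcript was the more abundant of the 2 in vehicle alone. TIMM9 over TIMM10 was 0.882 and 0.801 in Drug_0120, 0.481 and 0.439 in Drug_CN27, and 0.326 and 0.329 in vehicle. TIMM8A over TIMM13 averaged 0.774 ± 0.0595 in Drug_0120, 0.291 ± 0.0511 in Drug_CN27 and 0.251 ± 0.0384 in vehicle, and the Drug_CN27 and vehicle libraries overlapped. TIMM17A over TIMM17B was 9.37 and 10.8 in Drug_0120, 4.39 and 4.16 in Drug_CN27, and 5.63 and 5.41 in vehicle. For the ratios of TOMM40, TIMM9 and TIMM17A the 3 groups did not overlap, and the ratio of the TIMM17 pair went up with Drug_0120 and down with Drug_CN27 relative to vehicle. After GC correction the log2 change of the TIMM17 ratio was 0.22 with Drug_0120, against 0.82 without it, and -0.70 with Drug_CN27, against -0.37 without it. For TOMM40 over TOMM20 it was -1.30 with Drug_0120 and -0.69 with Drug_CN27, against -2.00 and -1.04 without the correction. For TIMM8A over TIMM13 it was 0.98 and -0.06, against 1.61 and 0.23. For TIMM44 over PAM16 it was 1.29 and 0.90, against 1.28 and 0.89. DNAJC19 over GRPEL1 stood out in Drug_CN27, at 2.51 and 2.35, beside 0.853 and 0.803 in Drug_0120 and 0.975 and 0.926 in vehicle. TIMM44 over PAM16 averaged 2.96 ± 0.115 in Drug_0120, 2.25 ± 0.155 in Drug_CN27 and 1.2 ± 0.0706 in vehicle. Other pairs kept their ratio: TIMM10 over TIMM10B averaged 3.50 ± 0.560 in Drug_0120, 3.78 ± 0.449 in Drug_CN27 and 3.50 ± 0.230 in vehicle, with overlapping libraries. With 2 libraries against 2 the exact permutation test cannot go below p = 0.333, so the ratios are given without a test.

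**Figure D3:**
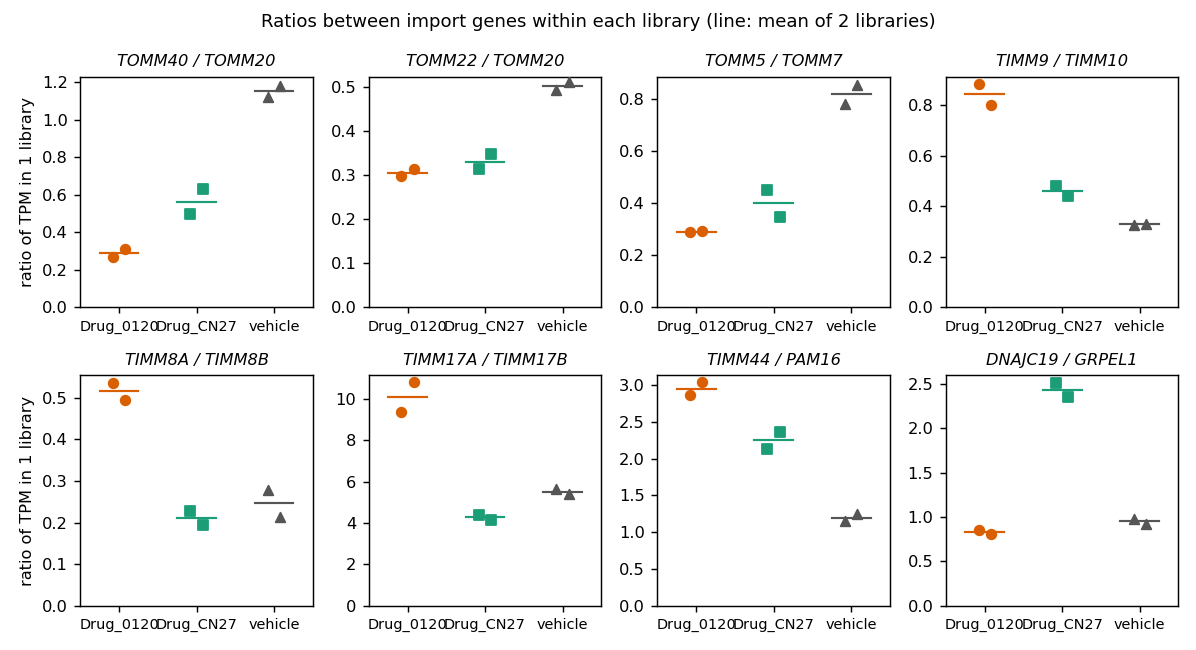
TPM ratio of 8 pairs of import genes within each library, by group, with a line at the mean of the 2 libraries; every vertical axis starts at 0. TOMM40 over TOMM20 runs from 0.266 in the lowest Drug_0120 library to 1.18 in the highest vehicle library, and DNAJC19 over GRPEL1 is above 2 in Drug_CN27 only.

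The third comparison sets the compounds against each other, with unknown doses. Relative to Drug_0120, 13 import genes were higher with Drug_CN27, 9 were lower and 7 did not pass. Among all tested genes 75.2% passed in either direction, beside 75.9% of the import genes; 51.7% were called higher and 23.5% lower, against 44.8% and 31.0% of the import genes. None of the import genes differed by 2-fold, beside 17.7% of all tested genes at least 2-fold higher and 3.97% at least 2-fold lower. The split depended on the scaling, for import genes and for all genes. It was 6 higher and 16 lower under median-of-ratios factors (37.8% and 38.1% of all tested genes), 12 and 14 under quantile normalization (36.9% and 38.4%), and 12 and 13 under equal table totals (43.2% and 31.7%). Over these 4 scalings the calls of 15 genes held, 6 higher and 9 lower. The median difference of the import genes was 0.05 on the log2 scale, beside 0.26 for all tested genes. Under the same 3 scalings it was negative, at -0.25, -0.21 and -0.13, beside -0.0046, -0.022 and 0.10 for all tested genes.

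In the deposited TPM, DNAJC19 differed most between the compounds, with a log2 difference of Drug_CN27 minus Drug_0120 of 0.84 ± 0.07 (limma adjusted p = 6.78e-06). Its difference ranged from 0.55 to 0.84 over the 4 scalings. TIMM13 (0.72 ± 0.10, limma adjusted p = 0.00021) and TIMM8B (0.60 ± 0.08, adjusted p = 0.000205) were also higher with Drug_CN27 than with Drug_0120 under all 4 scalings. TOMM40 was higher with Drug_CN27 by 0.63 ± 0.08 (limma adjusted p = 0.000158) and TIMM17B by 0.59 ± 0.08 (adjusted p = 0.00018). On the other side, GRPEL1 (-0.69 ± 0.07, limma adjusted p = 2.34e-05), TIMM8A (-0.65 ± 0.09, adjusted p = 0.000165) and TIMM17A (-0.60 ± 0.05, adjusted p = 1.23e-05) were lower with Drug_CN27. Under median-of-ratios, quantile and equal totals scaling, GRPEL1 (-0.97, -0.89 and -0.86) and TIMM8A (-0.93, -0.90 and -0.82) differed more than DNAJC19 (0.55, 0.67 and 0.66). The paralogs TIMM8A and TIMM8B, and likewise TIMM17A and TIMM17B, thus differed between the compounds with opposite signs. TOMM20 was lower with Drug_CN27 than with Drug_0120 (-0.33 ± 0.06, limma adjusted p = 0.00101) under all scalings. Calls that rested on 1 library were those of TIMM10B (0.19, adjusted p = 0.115) and TOMM22 (-0.20, adjusted p = 0.0524) without replicate 2 of Drug_0120, while SAMM50 lost its call without any 1 of 5 libraries, among them replicate 2 of Drug_CN27 (-0.12, adjusted p = 0.12). For TOMM5 the difference was 0.08 (95% interval -0.10 to 0.26), for TOMM6 -0.10 (-0.42 to 0.22), for TIMM22 -0.06 (-0.23 to 0.12) and for TIMM44 0.05 (-0.10 to 0.19).

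**Figure D4:**
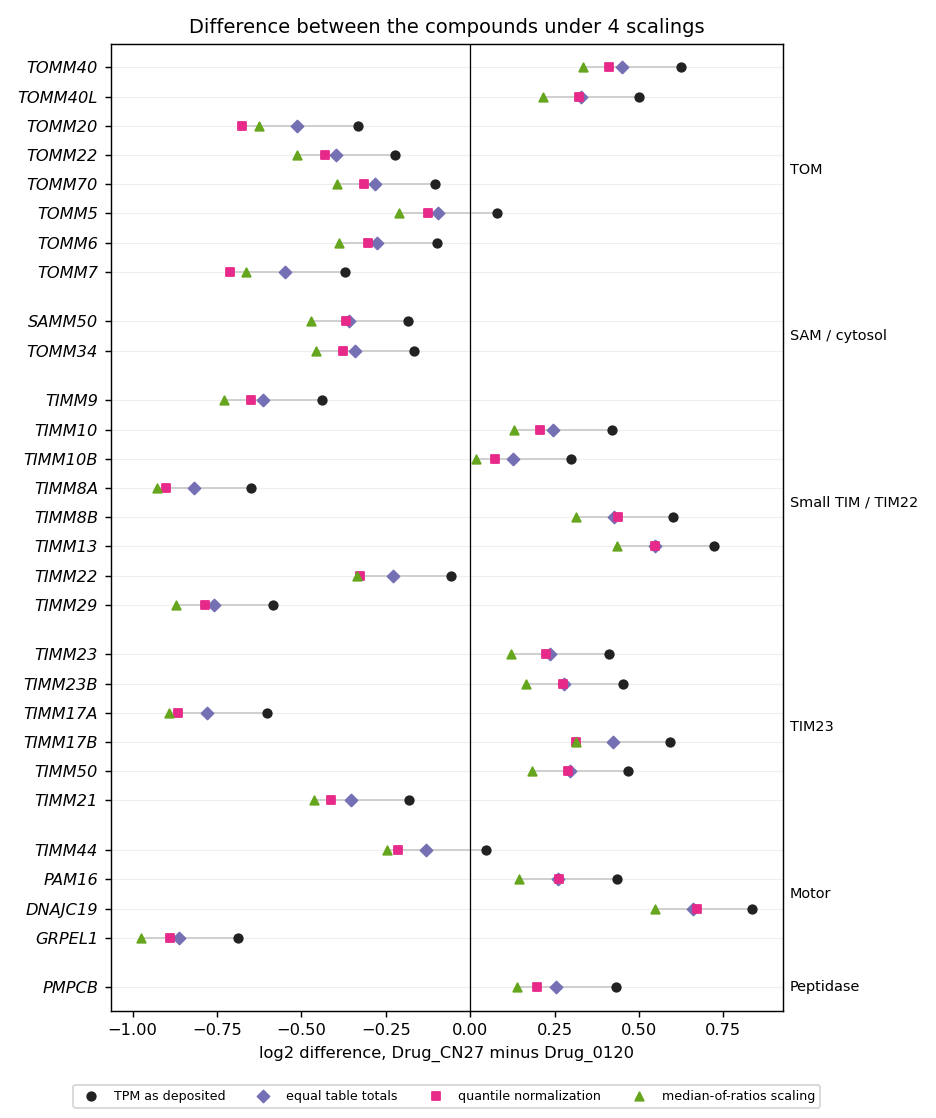
Log2 difference of Drug_CN27 minus Drug_0120 for each tested import gene under 4 scalings. The deposited TPM values (black circles) lie furthest right for every gene; DNAJC19, TIMM13 and TIMM8B stay right of 0 under all 4, and GRPEL1, TIMM8A and TIMM17A stay left of it.

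The GC content of transcripts moved with the changes, and its part in them was not tested beyond the correction given here. TOMM40 and TIMM13, which fell most with Drug_0120 in the deposited TPM, had the highest GC content of the 29 genes, 64.3% and 63.3%. High GC content did not always go with a fall. TIMM29 and TIMM44, at 61.1% and 59.1%, were higher with Drug_0120, while TIMM17B, at 60.4%, was lower. Across the 29 genes GC content and log2 change had r = -0.44 with Drug_0120 and -0.27 with Drug_CN27, a description over genes measured in the same libraries. A correction for GC content over all tested genes, added after seeing the data, brought these to -0.10 and -0.02. After it, the fall with Drug_0120 was -1.21 for TOMM40, -1.08 for TIMM13, -0.77 for TIMM50, -0.56 for PAM16, -0.22 for TIMM17B and -0.22 for TIMM10, all still called lower (limma adjusted p = 0.0174 at most). Falls of at least 2-fold with Drug_0120 were then 4 (TOMM40, TIMM13, TIMM8B and TOMM5), beside 15.7% of all genes with a GC value. The rise with Drug_0120 was 0.73 for TIMM44 and 1.16 for TIMM29. With Drug_CN27, TIMM9 no longer passed (0.18, limma adjusted p = 0.084), TOMM70 and PMPCB were at -0.05 and -0.02 without a call, and DNAJC19 kept its rise (0.34, adjusted p = 0.000822). Between the compounds, TIMM13 was higher by 0.21 (limma adjusted p = 0.0254) and TIMM29 lower by more than 2-fold (-1.06). The differences of TOMM40 (0.09, limma adjusted p = 0.179), TIMM50 (0.07), PAM16 (0.02) and TIMM17B (0.14) no longer passed. The median of the import genes relative to all genes was -0.33 with Drug_0120 and -0.54 with Drug_CN27 after the correction.

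**Figure D5:**
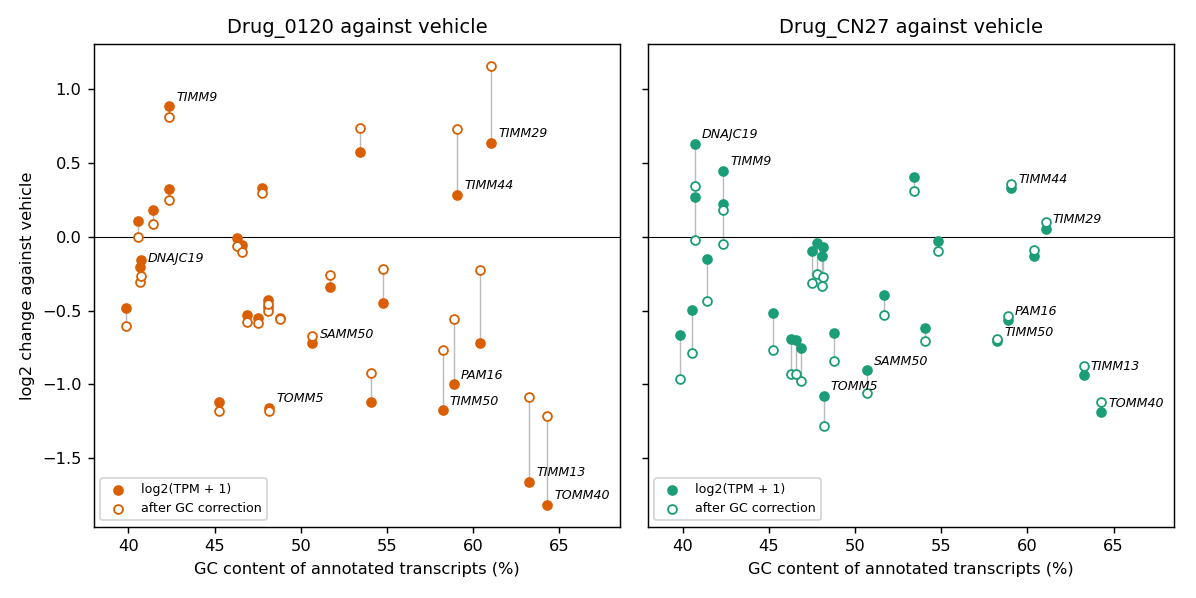
Log2 change against vehicle plotted over the GC content of the annotated transcripts (percent) for the 29 import genes, before (filled) and after (open) correction for GC content, with Drug_0120 on the left and Drug_CN27 on the right. With Drug_0120, TOMM40 moves from -1.82 to -1.21 and TIMM29 from 0.64 to 1.16.

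Some values carry limits from the annotation. The strand setting of the counting is not given in the sources used here, which leaves overlaps on opposite strands uncertain. Overlaps on the same strand are uncertain under any strand setting. Exons of 17 of the 31 genes overlap another gene. Among these, TIMM9 and TOMM20L overlap each other, TIMM8B overlaps SDHD, TIMM17B overlaps PQBP1 and TOMM40L overlaps NR1I3, each on opposite strands. On the same strand, TIMM13 overlaps LMNB2, SAMM50 overlaps PNPLA3 and TOMM5 overlaps AL138752.2 and AL513165.2. For all 17 genes the value is uncertain. PAM16 shares exons with the read-through gene CORO7-PAM16, which was listed at 7.06 and 5.13 TPM in Drug_0120, 12.5 and 21.8 TPM in Drug_CN27, and 11.8 and 18.9 TPM in vehicle, well below PAM16 in every library. Reads of 8 genes with annotated pseudogenes could also be split between copies. Among them were DNAJC19 with 9 pseudogenes, TOMM22 with 6, TOMM20 with 4 and TIMM9 with 3.

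Genes that work with the import machinery gave context, as a list of 23 chaperones, peptidases, relays and inner membrane scaffold subunits. Their values and calls were computed from the deposited TPM alone, and not under the other scalings or the GC correction. With Drug_0120, 14 were lower and 7 higher, with a median log2 change of -0.55, and with Drug_CN27, 9 were lower and 7 higher, with a median of -0.15. For all tested genes the shares were 45.5% lower and 36.0% higher with Drug_0120 (median -0.10) and 26.6% lower and 43.7% higher with Drug_CN27 (median 0.15). Between the compounds, 9 of the 23 were higher and 3 lower with Drug_CN27, beside 51.7% and 23.5% of all tested genes. Within the motor, HSPA9, the mitochondrial HSP70, averaged 519.5 ± 23.1 TPM in Drug_0120, 752 ± 37.6 TPM in Drug_CN27 and 440.0 ± 5.98 TPM in vehicle, a rise of 0.24 and 0.77 on the log2 scale (limma adjusted p = 0.00524 and 9.9e-06). GRPEL2, the second exchange factor and a paralog of GRPEL1, averaged 48.2 ± 0.131 TPM in Drug_0120, 43.4 ± 4.79 TPM in Drug_CN27 and 19.3 ± 1.17 TPM in vehicle. It was more than 2-fold higher with both compounds (log2 changes 1.28 ± 0.09 and 1.12 ± 0.09, limma adjusted p = 1.61e-06 and 1.01e-05). With Drug_CN27, GRPEL2 was thus above GRPEL1, which averaged 34.4 ± 0.0162 TPM, while vehicle had the reverse order.

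Among the peptidases, PMPCA, the partner of PMPCB, fell with both compounds (log2 changes -0.67 and -0.65 for Drug_0120 and Drug_CN27). MIPEP, which trims precursors after that peptidase, averaged 9.04 ± 0.0134 TPM in Drug_0120, 13.3 ± 0.937 TPM in Drug_CN27 and 35.2 ± 0.0305 TPM in vehicle (log2 changes -1.85 and -1.34, limma adjusted p = 1.15e-07 and 2.78e-06), and XPNPEP3 rose by 1.11 and 0.26 on the log2 scale with Drug_0120 and Drug_CN27. CHCHD4, the oxidoreductase of the intermembrane space, fell by 1.05 and 0.89 with Drug_0120 and Drug_CN27, and GFER, its reoxidizing partner, had changes of -0.17 (limma adjusted p = 0.111) and -0.32 (adjusted p = 0.0126). OXA1L, the insertase of the inner membrane, was higher by 0.20 on the log2 scale with Drug_0120 and at -0.15 with Drug_CN27 (limma adjusted p = 0.0587). Among scaffold subunits of the cristae junctions, IMMT fell by 1.12 on the log2 scale with Drug_0120 and by 0.49 with Drug_CN27. APOO fell by 1.07 with Drug_0120 and was at -0.09 with Drug_CN27 (limma adjusted p = 0.293). APOOL averaged 15.2 ± 1.56 TPM in Drug_0120, 38.5 ± 4.56 TPM in Drug_CN27 and 27.1 ± 1.91 TPM in vehicle, and was lower with Drug_0120 (-0.80) and higher with Drug_CN27 (0.49). Drug_CN27 minus Drug_0120 was 1.29 for APOOL and 1.02 for ROMO1 (limma adjusted p = 7.88e-06 and 0.000427). CHCHD3, below 2-fold in every comparison, was named after its values were seen: it was lower with Drug_0120 (-0.37) and higher with Drug_CN27 (0.40).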

How the data were processed

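Gene levels of polyadenylated RNA from 6 libraries of 22Rv1 cells were read from a table that the authors deposited in TPM, with 1 column per library. The submitters' processing notes name STAR, StringTie and hg19; versions, annotation, strand setting and filters were not stated there. Depth cannot be read from TPM and is unknown, so no counting interval is given. Groups and replicate numbers came from the labels. No source ties the replicates to separate cultures. P-values therefore reflect the spread between these libraries alone, and that spread may be technical.

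The table had 20315 rows, of which 18 Y-copies of pseudoautosomal genes were dropped. Values were analysed as log2(TPM + 1), which understates changes of low genes; limma 3.58.1 (R 4.3.3) was run on the 13606 genes that reached 1 TPM in at least 2 libraries. All 6 libraries entered a single fit with a mean-variance trend and no replicate block (3 residual and 5.33 prior degrees of freedom), and Benjamini-Hochberg adjustment ran over every tested gene, with calls at 0.05. The fit was tested on simulated data.

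Alternatives were a pseudocount of 0.1, no filter, the 3 other scalings, a replicate block, only the groups compared, no trend, each library left out and, chosen after seeing the data, a lowess correction (span 0.3) for transcript GC content from GENCODE release 29. The import genes and all lists were chosen with earlier results of these data known. Values per library are printed for the 8 import genes with the largest absolute change in each comparison, for those called in opposite directions by the compounds and for paralog pairs; other genes are given by mean or count. Genes of the context list were named with values if they changed at least 2-fold or were HSPA9, PMPCA, CHCHD4, GFER or OXA1L.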

Additional observations from a re-analysis of the deposited data

How the results depend on the processing

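Across 15 alternatives, 15 of the 18 lower calls and 5 of the 7 higher calls with Drug_0120 held in every one, as did 15 of the 16 lower and 2 of the 6 higher calls with Drug_CN27, and 7 of the 9 lower and 3 of the 13 higher calls between the compounds. Import genes called higher with Drug_CN27 numbered 3 under median-of-ratios scaling and 3 after GC correction. Between the compounds, higher import genes numbered 6 under median-of-ratios scaling and 7 after GC correction, lower ones 16 under median-of-ratios scaling, 14 under quantile normalization and 14 after GC correction, and lower genes among all those tested numbered 5189, 5222 and 5503 in the same order. The difference of medians between import genes and all genes, Drug_CN27 minus Drug_0120, was -0.21 and ran from -0.29 to -0.10 when 1 library was left out, -0.10 being without replicate 2 of Drug_0120; with no filter on low values it was -0.054. The cause of these shifts was not tested.

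Sign changes were seen mostly in genes without a call. With Drug_0120, GRPEL1 (-0.01) was at 0.11 under median-of-ratios scaling, 0.11 under quantile normalization and 0.17 under equal table totals, where it was called (limma adjusted p = 0.0418); with 1 library left out it ran from -0.076 to 0.060. TIMM8A (-0.05) was at 0.066 under median-of-ratios scaling and 0.12 under equal table totals, and ran from -0.16 to 0.051 with 1 library left out. PMPCB (-0.16) was at 0.068 under quantile normalization and 0.021 under equal table totals, and TIMM17A (0.105) at -0.0005 after GC correction. With Drug_CN27, TIMM29 (0.05) was at -0.11 under median-of-ratios scaling and -0.069 under quantile normalization, and the called TOMM70 and PMPCB were at -0.047 and -0.019 after GC correction; with 1 library left out TIMM10 ran from -0.13 to 0.077 and TOMM7 from -0.17 to 0.080. Between the compounds, TOMM5 (0.08) was at -0.21, -0.13, -0.096 and -0.10 under median-of-ratios, quantile, equal totals and GC correction, and TIMM44 (0.05) at -0.25, -0.21, -0.13 and -0.37 under the same 4. With 1 library left out, TOMM5 ran from -0.019 to 0.18, TIMM44 from -0.0019 to 0.094 and TOMM6 from -0.35 to 0.15.

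With the replicate number as a block, higher and lower import genes numbered 8 and 19 with Drug_0120, 6 and 16 with Drug_CN27, and 13 and 11 between the compounds, beside 5143 and 6383, 6369 and 3915, and 7366 and 3528 of all genes; TIMM17A (limma adjusted p = 0.0383) and PMPCB (0.0282) were added with Drug_0120, and TIMM21 (0.0452) and TOMM34 (0.0214) between the compounds. Same-numbered libraries deviated together at correlations of 0.16, 0.15 and 0.11 over the 3 pairs of groups. The labels name no shared batch, and with only 2 numbers it cannot be told whether same-numbered libraries share more than the number.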
